A study of Mus musculus with 2 samples.

Results

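The 8 MHC class II genes examined here were the classical chain genes H2-Aa, H2-Ab1 and H2-Eb1, the invariant chain gene Cd74, the H2-DM genes H2-DMa, H2-DMb1 and H2-DMb2, and H2-Oa. They were chosen by name, and each symbol matched 1 of the 32285 genes in both count matrices, so all 8 members were found. Their RNA was described across the macrophage states, monocytes, dendritic cells, tumor cells and stromal cells of MC38 tumors. The rule uses symbols only, although the gene family was picked with earlier results of these data known.

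MHC class II molecules carry peptides from engulfed material to the surface of antigen-presenting cells, where CD4+ T cells read them. H2-Aa and H2-Ab1 encode the alpha and beta chains of I-A, and H2-Eb1 encodes the beta chain of I-E. C57BL/6 mice lack a working I-E alpha chain gene, so I-E is not assembled in this strain although H2-Eb1 RNA is made. Cd74 fills the groove until lysosomal proteases such as cathepsin S cut it away, H2-DM then exchanges the remaining fragment for peptide, and H2-O, of which H2-Oa encodes the alpha chain, restrains H2-DM. Transcription of these genes rests on the coactivator Ciita, which interferon gamma induces in macrophages and which acts through RFX, CREB and NF-Y factors bound at the X and Y boxes of class II promoters. Dendritic cells express class II genes constitutively, while in tumor-associated macrophages their level varies with the state of the cell.

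Single-cell RNA sequencing (10x Genomics) was performed on live cells sorted from subcutaneous tumors of MC38, a colon carcinoma line of the mouse, as 1 library from wild-type (Lmo7+/+) and 1 library from LMO7 knockout (Lmo7-/-) hosts. The study asked how host LMO7 deficiency alters the tumor microenvironment. Hosts were young adult female C57BL/6 mice, the knockout was in the whole animal, and the implanted MC38 cells carried their own Lmo7 in both groups. The number of mice behind each library is not named in the sources used here, so the design holds 1 sample a genotype, there is no replicate spread, and no difference between the genotypes was tested.

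Filtering kept 13542 Lmo7+/+ and 11860 Lmo7-/- cells, with median depths of 4535.5 and 4304.5 unique molecular identifiers (UMIs, each marking a captured RNA molecule). Lmo7 RNA did not check the labels, since host cells of named classes held 37 and 30 Lmo7 UMIs (log2 ratio -0.28, 95% interval -1.02 to 0.46), so the groups are called by their labels throughout. The libraries shared 279 barcodes. Of the 175 barcodes kept in both, 36.6% fell in the same cell class, against 32.3% given by the class sizes alone, and leaving out all cells with a shared barcode gave 0.58 for the macrophage class II ratio given below as 0.59. Clusters were named from marker genes with all class II genes left out of the clustering, giving 2836 and 3432 macrophage-like, 1331 and 1244 monocyte-like, 317 and 205 dendritic-like, 7400 and 5320 tumor cell-like, 127 and 97 fibroblast-like, 99 and 73 endothelial-like and 578 and 733 T or NK-like cells. The 7 and 21 mast-like cells were too few to describe. Macrophage-like, monocyte-like, fibroblast-like, endothelial-like and T cell clusters each had all markers of their list above 5 counts per 1000000 counts (CPM), while tumor cell-like clusters had 6 of 14 and were named by these and by low Ptprc, the pan-leukocyte gene. In a finer clustering, no cluster of at least 15 cells had any neutrophil marker at 100 CPM, and at most 12.5% of the B cell markers reached it. Clusters left unnamed held 6.25% and 6.20% of the cells.

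In GRCm38, the mouse build named in the submitters' processing notes, 7 of the members lie within 224.3 kb of chromosome 17 and Cd74 lies elsewhere in the genome. From the proximal end the order on chromosome 17 is H2-Oa at chr17:34092340-34095234, H2-DMa at chr17:34119541-34139101, H2-DMb2 at chr17:34143307-34151555, H2-DMb1 at chr17:34153072-34160230, H2-Ab1 at chr17:34257689-34269419, H2-Aa at chr17:34282744-34287823 and H2-Eb1 at chr17:34305867-34316674. H2-Aa is on the minus strand and the others are on the plus strand (GENCODE M21). H2-DMa overlaps Brd2 and several antisense or pseudogene models, and H2-Eb1 and H2-Oa each overlap an antisense gene. Reads shared with a gene on the other strand cannot be told apart if strand was not used in counting. The model CR974462.3 lies on the same strand as H2-DMa, and the microRNA gene Mir5107 on that of Cd74, where strand does not separate reads. H2-DMb1 and H2-DMb2 are near-identical in places: 25.3% of the 31-base words in the last 500 bases of the H2-DMb1 transcript also occur in H2-DMb2, against 0.851% of those of H2-DMb2 in H2-DMb1. Their separate values are therefore less certain than those of the other members.

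The promoters are shown because all members share the X and Y box control that Ciita acts on. RefSeq promoters (GRCm38.p6, 250 bases before to 50 after each start) were at hand for 6 members with 7 starts. The Y box core TGATTGG, which holds a CCAAT box in reverse, and the X2-like word GATGATG were searched on both strands in the 250 bases before the start. TGATTGG was found in 5 of the 7 promoters, against 7.23% of 32851 mouse promoters, and GATGATG in 3, against 2.92%. H2-DMb2, H2-DMb1 and H2-Eb1 held both words, a pairing present in 0.201% of all promoters, with 17 or 18 bases between them. Neither start of H2-DMa held either word on the strands searched. A match describes letters in this window only. The stretches below are written on the gene's strand with the matches in capitals, and those of H2-Oa and H2-DMb1 are kept to 30 bases because they overlap an annotated exon.
H2-Aa, chr17:34287857-34287918, minus strand: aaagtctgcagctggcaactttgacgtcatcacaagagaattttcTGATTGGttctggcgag
H2-Eb1, chr17:34305761-34305822, plus strand: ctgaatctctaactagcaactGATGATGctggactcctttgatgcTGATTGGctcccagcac
H2-DMb2, chr17:34145112-34145173, plus strand: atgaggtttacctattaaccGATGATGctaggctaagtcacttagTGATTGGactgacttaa
H2-DMb1, chr17:34153115-34153144, plus strand: ctgattcactcagTGATTGGtctgacctgc
H2-Oa, chr17:34092321-34092350, plus strand: cagagaactgctcTGATTGGctgcttaccg

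Class II RNA was high in the 3 myeloid classes and low in the tumor cell, stromal and lymphoid classes of both libraries. The class II sum, the summed counts of the 8 genes as CPM of the class, was 44391 CPM in dendritic-like, 35059 in monocyte-like and 28137 in macrophage-like cells of the Lmo7+/+ library. It was 2425 CPM in endothelial-like, 1629 in fibroblast-like, 1403 in T or NK-like and 916 in tumor cell-like cells there. In the Lmo7-/- library the order of the myeloid classes differed: 47064 CPM in dendritic-like, 42210 in macrophage-like and 35985 in monocyte-like cells. The other classes held 3480 CPM in endothelial-like, 3195 in fibroblast-like, 1434 in tumor cell-like and 1283 in T or NK-like cells. Macrophage-like cells thus stood below monocyte-like cells in the library labelled Lmo7+/+ (log2 ratio of macrophages over monocytes -0.32, 95% interval -0.32 to -0.31) and above them in the library labelled Lmo7-/- (0.23, 0.22 to 0.24). This order was not computed under other filters or clusterings, and the line between these classes depends on them. Monocyte-like cells fell from 1331 and 1244 to 599 and 448 with a more lenient filter on cells, and to 825 and 669 with 20 principal components. None of the 8 members was at least 2-fold higher in macrophage-like than in monocyte-like cells in both libraries, against 2.84% of 11276 genes. Over T or NK-like cells 7 of 8 were, against 12.9% of 11383 genes, H2-Oa being the exception, and over tumor cell-like cells 8 of 8 were, against 15.5% of 13606 genes. All intervals here are exact, Poisson or binomial, and cover counting error only.

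**Figure D1:**
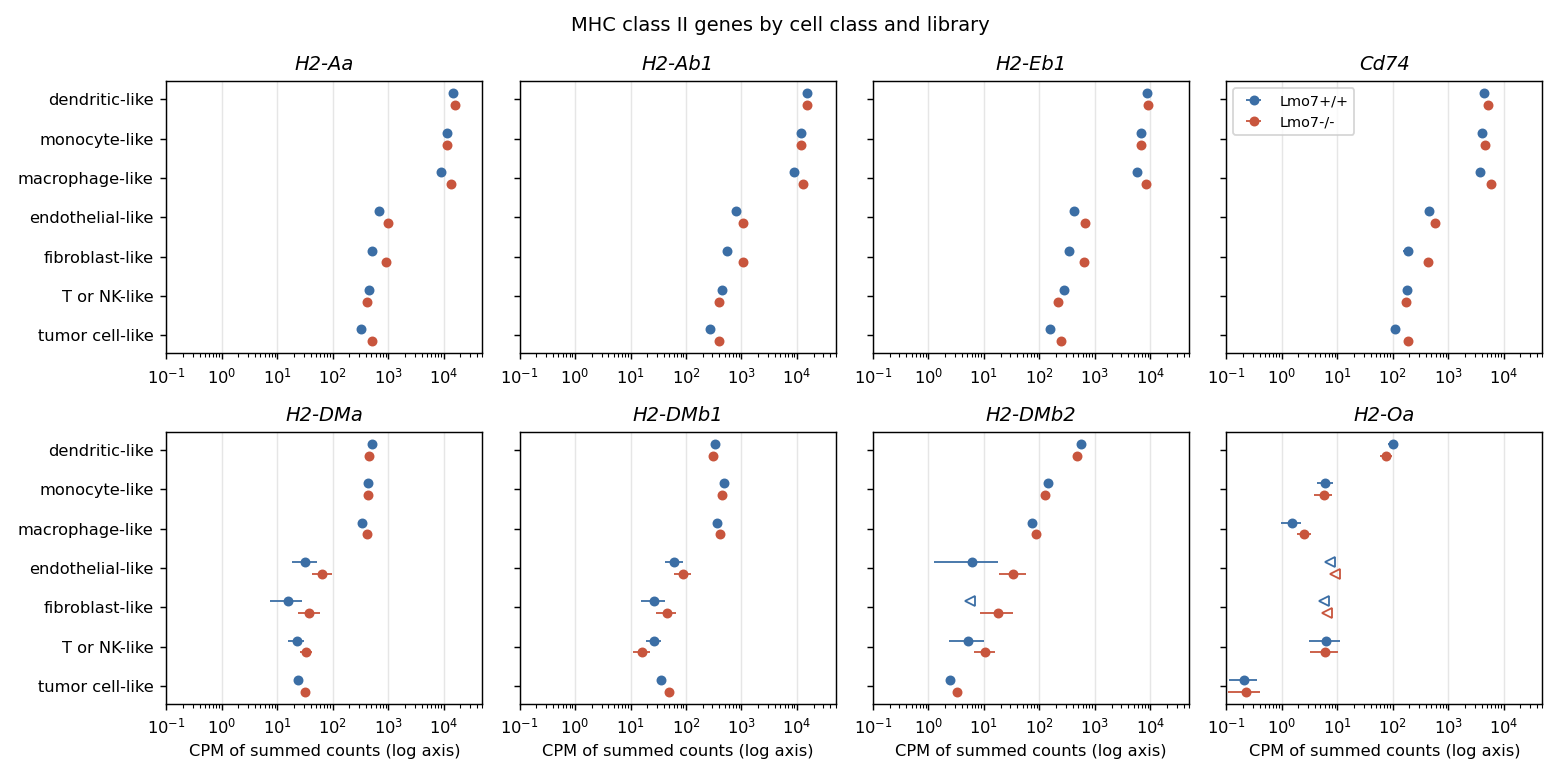
CPM of summed counts of each of the 8 genes (log axis) in 7 cell classes, with 1 point a library (blue Lmo7+/+, red Lmo7-/-) and exact 95% Poisson intervals for counting error, and open triangles where the count was 0, drawn at the upper end of the exact interval. Dendritic-like, monocyte-like and macrophage-like cells form the upper group for H2-Aa, H2-Ab1, H2-Eb1, Cd74, H2-DMa and H2-DMb1, while H2-DMb2 and H2-Oa stand highest in dendritic-like cells.

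The classical chains and Cd74 differed little between dendritic-like and macrophage-like cells compared with H2-DMb2 and H2-Oa. In Lmo7+/+, dendritic-like cells had 1.65-fold the H2-Aa level of macrophage-like cells, 1.68-fold for H2-Ab1, 1.505-fold for H2-Eb1 and 1.19-fold for Cd74. In Lmo7-/- the same ratios were 1.17-fold, 1.17-fold, 1.08-fold and 0.872-fold, so that the ratios were lower there for all 4 genes. For the class II sum the log2 ratio was 0.66 in Lmo7+/+ and 0.16 in Lmo7-/-, but 0.17 and -0.0054 under a stricter filter on cells that left 98 and 75 dendritic-like cells, so the order of the classes in Lmo7-/- depends on that filter. H2-Oa stood at 99.4 and 76.3 CPM in dendritic-like cells and was counted in 25 and 44 UMIs (1.502 and 2.56 CPM) in macrophage-like cells, 66.2-fold and 29.8-fold apart (log2 6.05, 5.42 to 6.73, and 4.90, 4.33 to 5.48). H2-DMb2, at 552 and 477 CPM in dendritic-like cells, was 7.63-fold and 5.53-fold above macrophage-like cells, whereas H2-DMb1 was at 0.940-fold and 0.762-fold. The balance of the H2-DM beta chain loci differed accordingly, within the limit that their reads may be split between near-identical copies: dendritic-like cells had 1.64 and 1.54 H2-DMb2 UMIs per H2-DMb1 UMI, monocyte-like cells 0.303 and 0.280, and macrophage-like cells 0.202 and 0.213. Only H2-DMb2 and H2-Oa, 2 of the 8 members, were at least 2-fold higher in dendritic-like cells in both libraries, against 6.08% of the 11087 genes compared. H2-Ob, which encodes the partner chain of H2-Oa, stood at 169 and 160 CPM in dendritic-like and at 9.61 and 13.9 CPM in macrophage-like cells.

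Among the dendritic-like states, H2-Oa had its highest level in the Cd209a and Mgl2 state for Lmo7+/+ (136 CPM, 84 UMIs) and in the cycling state for Lmo7-/- (128 CPM, 13 UMIs, 95% interval 68.3 to 219 CPM). The Xcr1 and Clec9a state, which carries markers of cross-presenting dendritic cells, had 56.9 and 38.3 CPM from 16 and 8 UMIs, with intervals that overlapped between the libraries. The Ccr7 and Fscn1 state, with markers of mature dendritic cells, had the lowest class II sum of the 5 states, 21164 and 19521 CPM against 39705 to 51244 CPM in the other states of both libraries. The lower level was uneven across members. H2-Ab1 gave 0.595 and 0.384 UMIs per H2-Aa UMI in that state (0.538 to 0.657 and 0.334 to 0.440), against 1.03 and 0.954 in the Cd209a and Mgl2 state, and H2-DMa was counted in 11 and 4 UMIs only. The state held 34 and 27 cells. A further state of 22 and 11 cells carried Apoe and C1qa, macrophage genes, and 15.2% of its cells were called doublets.

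Macrophage-like cells of the library labelled Lmo7-/- held more class II RNA than those of the library labelled Lmo7+/+. The class II sum stood at 28137 CPM in the second and 42210 CPM in the first (log2 ratio 0.59, 95% interval 0.58 to 0.59). Cd74 stood at 3769 and 6001 CPM (log2 0.67), H2-Aa at 8951 and 13790 CPM (0.62), H2-Eb1 at 5746 and 8457 CPM (0.56) and H2-Ab1 at 8895 and 13056 CPM (0.55). The H2-DM genes differed less: H2-DMa was at 343 and 412 CPM (0.26, 0.21 to 0.32), H2-DMb2 at 72.3 and 86.1 CPM (0.25, 0.14 to 0.36) and H2-DMb1 at 359 and 405 CPM (0.17, 0.12 to 0.22). H2-Oa was counted in 25 and 44 UMIs (0.77, 0.03 to 1.54). All 8 members were higher in the library labelled Lmo7-/-, and 5 of the 8 passed a log2 ratio of 0.5, against 5.16% of the 11934 genes that reached 20 counts (8.83% passed downward). The median log2 ratio was 0.56 over the members and -0.10 over all genes. TMM scaling, which centres the bulk of genes, shifted every ratio up by 0.11, to 0.69 for the sum, with 5 members past the fold.

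The macrophage markers themselves, 12 of 12 above 0, summed to 20245 and 24385 CPM in these cells. The 12 dendritic markers summed to 97.6 and 166 CPM in Lmo7+/+ and Lmo7-/- macrophage-like cells (Btla at 0 in the first and Flt3 at 0 in the second), against 3683 and 4169 CPM in dendritic-like cells. They also summed to 770 and 748 CPM in tumor cell-like cells, so this sum is not particular to dendritic cells. The 8 B cell markers summed to 13.0 and 11.6 CPM, with 3 and 4 of them at 0. The 14 tumor cell markers summed to 137 and 115 CPM, with 3 and 5 at 0. The part of dendritic cell RNA in the class II difference was not tested. Median depth was 5349.5 and 4475 UMIs, and with each cell thinned to 1500 UMIs the log2 ratio of the sum was 0.58.

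The difference was present within each macrophage state. All 8 states had a higher class II sum in the library labelled Lmo7-/-, with log2 ratios from 0.39 to 1.00 and a mean of 0.61 with each state weighted equally. For H2-Aa, H2-Ab1, H2-Eb1 and Cd74 the interval stood above 0 in 8 of 8 states, for H2-DMa in 5, and for H2-DMb1 and H2-DMb2 in 3. State 4, whose leading genes were the immunoglobulin genes Igkc and Ighg2b with Fcrl5 and Cd300e (119 and 300 cells), and state 8, led by Retnla, Folr2 and Lyve1 (70 and 86 cells), had the lowest sums of the 8 states in Lmo7+/+ and the widest ratios: 14026 against 28041 CPM in state 4 (log2 1.00, 0.96 to 1.04) and 14931 against 29707 CPM in state 8 (0.99, 0.94 to 1.04). In state 8, which carries markers of resident macrophages, H2-DMa and H2-DMb1 were higher too, at 188 and 412 CPM (1.14, 0.71 to 1.58) and at 155 and 279 CPM (0.85, 0.36 to 1.35).

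The highest levels of both libraries were in state 6, led by Ccl5, Ccl8, Igf1 and C3, with 43525 and 56985 CPM (0.39, 0.37 to 0.41). That state made up 68 and 268 cells, and without it the macrophage ratio was 0.55. State 1, led by Vdr, Il1r2 and Dnase1l3, was the most populous (1184 and 1476 cells) and went from 34232 to 49791 CPM (0.54). The interferon state 5, led by Ifit3, had 30252 and 40436 CPM (0.42), the cycling state 2 had 23400 and 34863 CPM (0.58), and state 3, led by Mmp12, Gpnmb and Arg1 with heat shock genes, had 22942 and 31440 CPM (0.45). State 7, with 26530 and 37130 CPM (0.48), was led by Sparc and H19, genes of the tumor cells, and without it the macrophage ratio was 0.59. The states spanned 3.10-fold in Lmo7+/+ and 2.03-fold in Lmo7-/-, and state 4 was the lowest and state 6 the highest in both.

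The count of members past the log2 ratio of 0.5 varied between the states, with 8 members tested in state 1 and 7 in each other state. It was 7 of 7 in state 8, against 13.8% of all genes tested in that state, and 6 of 7 in state 4, against 10.6%. It was 4 of 8 in state 1 (5.46%), 4 of 7 in state 2 (5.39%), 3 of 7 in state 7 (10.5%), 2 of 7 in state 3 (6.47%) and 1 of 7, Cd74, in state 6 (11.7%). No member passed in the interferon state 5, against 8.53%. None passed downward in any state, but the downward share of all genes was computed for the whole class only (8.83%). H2-DMa and H2-DMb2 passed in states 4 and 8 and H2-DMb1 in state 8.

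**Figure D2:**
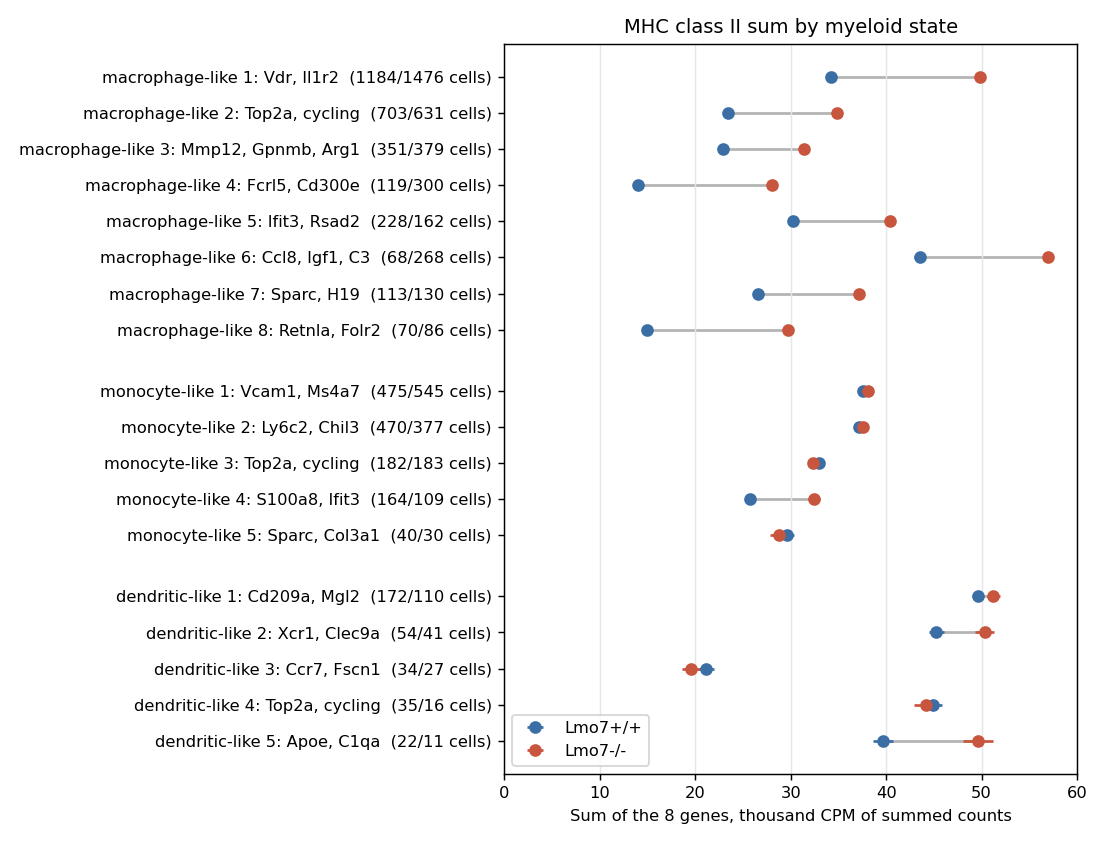
Class II sum (axis in units of 1000 CPM) for each macrophage-like, monocyte-like and dendritic-like state, named by leading genes with the cells of the Lmo7+/+ and Lmo7-/- libraries in brackets; blue points are Lmo7+/+, red points Lmo7-/-, horizontal bars exact 95% counting intervals and grey lines join the libraries. All 8 macrophage-like states lie to the right in the Lmo7-/- library, while 4 of 5 monocyte-like states lie close to their Lmo7+/+ value.

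Per cell, the 10th, 25th, 50th, 75th and 90th percentiles were all higher in the library labelled Lmo7-/-. After thinning to 1500 UMIs, macrophage-like cells of the Lmo7+/+ library (2708 cells) held a median of 42 class II UMIs, with a 10th percentile of 8 and a 90th of 78. Those of the Lmo7-/- library (3142 cells) held a median of 63, with 26 and 104 at the same percentiles. The share with an H2-Aa UMI was 95.9% (95.0 to 96.6) and 99.3% (98.9 to 99.5) after thinning, and 98.5% and 99.7% without it. T or NK-like cells, which should lack the gene, gave 23.7% and 22.3% (33.7% and 30.3% unthinned) at median depths of 2155 and 2218 UMIs, and 20.1% and 19.3% without their state 6, of which 46.9% were called doublets.

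**Figure D3:**
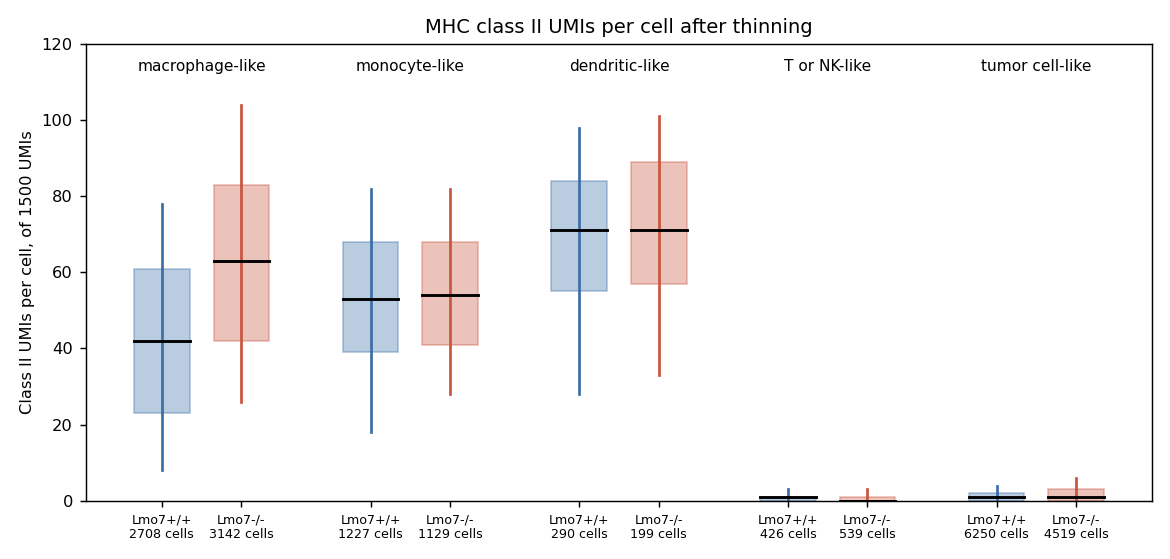
Class II UMIs per cell after each cell was thinned to 1500 UMIs, by class and library, with the median as a black line, the box from the 25th to the 75th percentile and the thin line from the 10th to the 90th; cells are not replicates. The macrophage-like median is 42 in Lmo7+/+ and 63 in Lmo7-/-, monocyte-like and dendritic-like medians differ by at most 1, and T or NK-like and tumor cell-like medians are at 0 or 1.

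Monocyte-like cells, led by Ly6c2, Plac8 and Ccr2, had nearly equal class II sums of 35059 and 35985 CPM (log2 0.04, 0.03 to 0.05), and the ratio ran from 0.0070 to 0.12 over the alternatives. The class also carried macrophage markers. The 12 macrophage markers summed to 10371 and 11603 CPM in it, and the 10 monocyte markers to 2618 and 2068 CPM. None of the 8 members passed the fold, against 4.79% of 10609 genes higher and 7.58% lower. Cd74 had the widest positive ratio, 4015 and 4531 CPM (0.17, 0.15 to 0.20), and H2-DMb2 the widest negative, 146 and 126 CPM (-0.22, -0.36 to -0.07). Of the 5 states, only state 4, led by S100a8, S100a9 and Ifit3, had a ratio above 0.02 (25762 and 32482 CPM, 0.33, 0.30 to 0.37). S100a8 and S100a9 were also on the list of neutrophil markers, and whether this state holds neutrophils was not tested. Its cells varied widely, with 10th and 90th percentiles of 1 and 78 UMIs for Lmo7+/+ and of 1 and 86 for Lmo7-/- after thinning.

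In dendritic-like cells the class II sum was 44391 and 47064 CPM (log2 0.08, 0.07 to 0.10), and the ratio was 0.30 under the stricter filter on cells. None of the 8 members passed the fold here either, against 7.74% of 7987 genes higher and 14.1% lower. H2-Aa (0.12, 0.09 to 0.15), H2-Eb1 (0.09, 0.04 to 0.13) and Cd74 (0.22, 0.16 to 0.27) were higher in the library labelled Lmo7-/-, H2-DMb2 was lower (-0.21, -0.39 to -0.04), and the intervals of H2-Ab1, H2-DMa, H2-DMb1 and H2-Oa held 0. The median per thinned cell was 71 UMIs in both libraries. Whether the ratio in macrophages differs from that in monocytes or dendritic cells was not tested, since there is 1 library a genotype.

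Tumor cell-like cells held little class II RNA, with a sum of 916 CPM in the library labelled Lmo7+/+ and 1434 CPM in the library labelled Lmo7-/- (log2 0.65, 0.63 to 0.66). As a mean over cells, which weights shallow and deep cells alike, the ratio was 0.39. Cd74 stood at 112 and 190 CPM (0.76), H2-Aa at 317 and 518 CPM (0.71), H2-Eb1 at 157 and 243 CPM (0.63) and H2-Ab1 at 269 and 399 CPM (0.57). These 4 of the 8 members passed the fold upward, against 4.66% of 14299 genes, and none passed downward, against 6.26%. State 1, led by cycling genes, and state 2, led by Car9 and Slc2a1, genes of hypoxia and glucose uptake, together with Tnfrsf9 and the immunoglobulin gene Igkc, had a log2 ratio of 0.80 each, against 0.24 in the collagen-rich state 3 and 0.27 in the shallow state 4. Members past the fold upward numbered 7 of 7 in state 1 (3.87% of all genes tested), 5 of 7 in state 2 (4.38%), 0 of 7 in state 3 (6.31%) and 2 of 6 in state 4 (7.03%). In state 3 H2-DMb2 passed downward, from 34 and 23 UMIs (-0.95, -1.78 to -0.14), with no downward share of all genes computed for that state. The share with an H2-Aa UMI after thinning was 31.8% (30.7 to 33.0) and 42.1% (40.7 to 43.6), above the 23.7% and 22.3% of T or NK-like cells, and 62.7% and 69.4% without thinning at median depths of 4953 and 5255 UMIs.

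Macrophage RNA in tumor cell-like cells was gauged by C1qa, C1qb and C1qc, complement genes that macrophages make. Tumor cell-like cells held 122 and 119 CPM of C1q. Their class II UMIs per C1q UMI were 7.50 (7.33 to 7.69) and 12.1 (11.8 to 12.4). In macrophage-like cells the ratio was 2.29 and 2.99, and over all myeloid cells together 3.03 and 3.38. T or NK-like cells without state 6 gave 3.92 (3.38 to 4.57) and 4.70 (4.10 to 5.41). The same ratio was 5.23 and 4.68 in monocyte-like cells and 49.7 and 38.8 in dendritic-like cells, so C1q gauges dendritic cell RNA poorly. In states 1 and 2 the ratio went from 7.25 to 13.6 and from 9.19 to 16.1, in state 3 from 6.15 to 7.83 and in state 4 from 3.62 to 5.11. H2-DMb2 gave 0.0696 and 0.0664 UMIs per H2-DMb1 UMI in tumor cell-like cells, below the macrophage values of 0.202 and 0.213. The part of macrophage RNA in the class II difference of tumor cell-like cells was not tested.

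A small group of tumor cell-like cells carried at least 10 class II UMIs of 1500: 107 of 6250 cells (1.71%, 1.41 to 2.07) for Lmo7+/+ and 190 of 4519 (4.20%, 3.64 to 4.83) for Lmo7-/-. These cells also carried C1q, with C1qa at 142 and 146 CPM against 17.3 and 14.9 CPM in the remaining cells, and Ciita at 33.2 and 29.5 CPM against 3.81 and 7.03 CPM. Doublet calls marked 10.3% of the Lmo7+/+ group and 0.526% of the Lmo7-/- group. The remaining cells had 99.1 and 167 CPM of Cd74. The part of macrophage, monocyte or dendritic cell RNA or of doublets in these values was not tested.

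**Figure D4:**
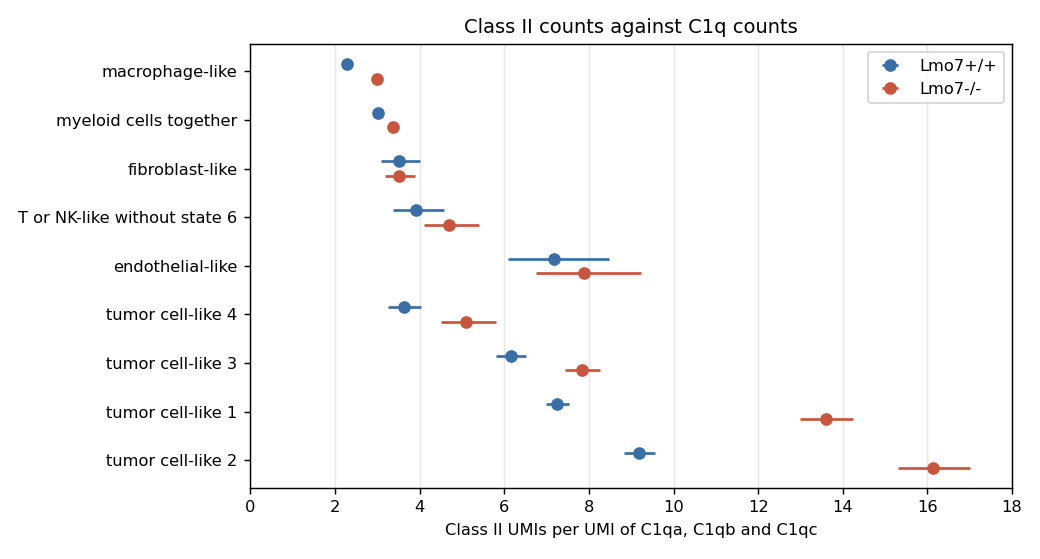
Class II UMIs per UMI of C1qa, C1qb and C1qc in macrophage-like cells, all myeloid cells, stromal classes, T or NK-like cells without state 6 and the 4 tumor cell-like states (blue Lmo7+/+, red Lmo7-/-; bars are exact 95% counting intervals). Tumor cell-like states 1 and 2 reach 13.6 and 16.1 in the Lmo7-/- library, while fibroblast-like cells stand at 3.51 in both.

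The stromal classes were small. Fibroblast-like cells had a class II sum of 1629 and 3195 CPM (log2 0.97, 0.86 to 1.08) from 1059 and 1768 UMIs. Their C1q stood at 465 and 911 CPM, so class II per C1q was 3.51 in both libraries. A few cells stood apart: 6 of 98 thinned cells in Lmo7+/+ and 11 of 81 in Lmo7-/- held at least 10 class II UMIs, with Cd74 at 2236 and 2159 CPM, C1qb at 1368 and 1950 CPM and Ptprc at 234 and 231 CPM. In the remaining 92 and 70 cells Cd74 stood at 80.4 and 73.2 CPM, not higher in the library labelled Lmo7-/-. Over all fibroblast-like cells, those few included, 6 of 6 members with at least 20 counts passed the fold, with 5 of the 6 intervals above 0, against 13.3% of 6786 genes upward and 19.4% downward. H2-DMb2 went from 0 to 10 UMIs (at least 3.92-fold higher, against a limit of 3 counts), and H2-Oa had no UMI in either library. Endothelial-like cells had 2425 and 3480 CPM (0.52, 0.41 to 0.63). Those with at least 10 class II UMIs numbered 10 of 86 and 8 of 63, and Cd74 in the remaining cells was at 212 and 414 CPM. Their class II UMIs per C1q UMI were 7.17 (6.10 to 8.49) and 7.87 (6.74 to 9.24). There 4 of 6 members passed, against 14.1% of 6264 genes upward and 15.7% downward, and H2-DMb2 was counted in 3 and 14 UMIs (5.60-fold, log2 interval 0.64 to 4.93). H2-Oa was not detected in 86 and 63 thinned endothelial-like cells, which allows shares of up to 3.49% and 4.76% of cells with a UMI.

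In T or NK-like cells the class II sum was 1403 and 1283 CPM (log2 -0.13, -0.21 to -0.05), and -0.04 with TMM scaling. H2-DMa and H2-DMb2 passed the fold upward from 39 and 72 and from 9 and 23 UMIs, against 5.8% of 9678 genes, with intervals that held 0, and H2-DMb1 downward from 45 and 35 UMIs (-0.69, -1.37 to -0.02), against 12.3%. Without state 6 the sums were 604 and 619 CPM, from 871 and 1171 UMIs, with no interval computed for their ratio. State 6 itself had 5357 and 5801 CPM (log2 0.12, 0.01 to 0.22), so neither part was lower in the library labelled Lmo7-/-. H2-Oa was at 6.34 and 5.99 CPM, from 11 and 13 UMIs, above its level in macrophage-like cells (log2 ratio of macrophages over T or NK-like cells -2.08, -3.15 to -0.91, and -1.22, -2.14 to -0.21).

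The wider pathway was described with lists of genes chosen by role. In macrophage-like cells, 3 of 7 genes from the interferon gamma receptor to Ciita passed the fold upward, against 5.16% of all genes. In the same list 0 passed downward, against 8.83%. Among the 3 were the transcription factor gene Irf1 at 159 and 297 CPM (log2 0.90, 0.84 to 0.97) and Socs1, an inhibitor of the same pathway, at 31.5 and 53.3 CPM (0.76). The receptor genes Ifngr1 (-0.02) and Ifngr2 (-0.07) and Jak1 (0.00) stood near 0, and Jak2 was at 0.27. Of 10 genes of class II transcription 0 passed, near the 5.16% upward and 8.83% downward of all genes. Ciita itself was at 55.0 and 67.6 CPM (0.30, 0.17 to 0.42), the RFX subunits Rfx5, Rfxank and Rfxap at 0.34, 0.01 and 0.05 with intervals that held 0, and the NF-Y subunits Nfya, Nfyb and Nfyc between -0.27 and -0.19.

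Ciita differed in direction between the myeloid classes. In monocyte-like cells it was at 120 and 95.9 CPM (-0.32, -0.49 to -0.16), while Irf1 (0.59) and Socs1 (0.78) were higher in the library labelled Lmo7-/-. In dendritic-like cells it was at 205 and 232 CPM (0.18, -0.09 to 0.44). Tumor cell-like cells had 4.24 and 7.76 CPM of Ciita (0.87, 0.64 to 1.11), with Irf1 at 423 and 588 CPM (0.47).

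Of 7 processing genes in macrophage-like cells 0 passed the fold, against 5.16% of all genes upward, so a count of 0 in so short a list is near the background. Their median log2 ratio was 0.18, with Ctss, the cathepsin that cuts the invariant chain, at 5350 and 7471 CPM (0.48), Ctsd at 0.31, Ctsb at 0.24 and Ifi30, a lysosomal thiol reductase, at -0.04. Of 3 genes of class II surface turnover 0 passed, which cannot be told from the background of 5.16% upward and 8.83% downward: March1, which marks class II for removal from the surface, was at 0.27 and Cd83, which opposes it, at -0.21. Of 5 costimulation genes 1 passed, against the same background: Cd274, which encodes the inhibitory ligand PD-L1 (146 and 305 CPM, 1.07, 1.00 to 1.14), and Cd86 was at 0.25. The 4 class I genes that lie within the class II region, Psmb8, Psmb9, Tap1 and Tap2, had ratios of 0.17 to 0.34 in macrophages, and 0 of 4 passed the fold, against 5.16% of all genes. In tumor cell-like cells 2 of 4 did, Psmb9 (0.66) and Tap1 (0.62), against 4.66%.

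**Figure D5:**
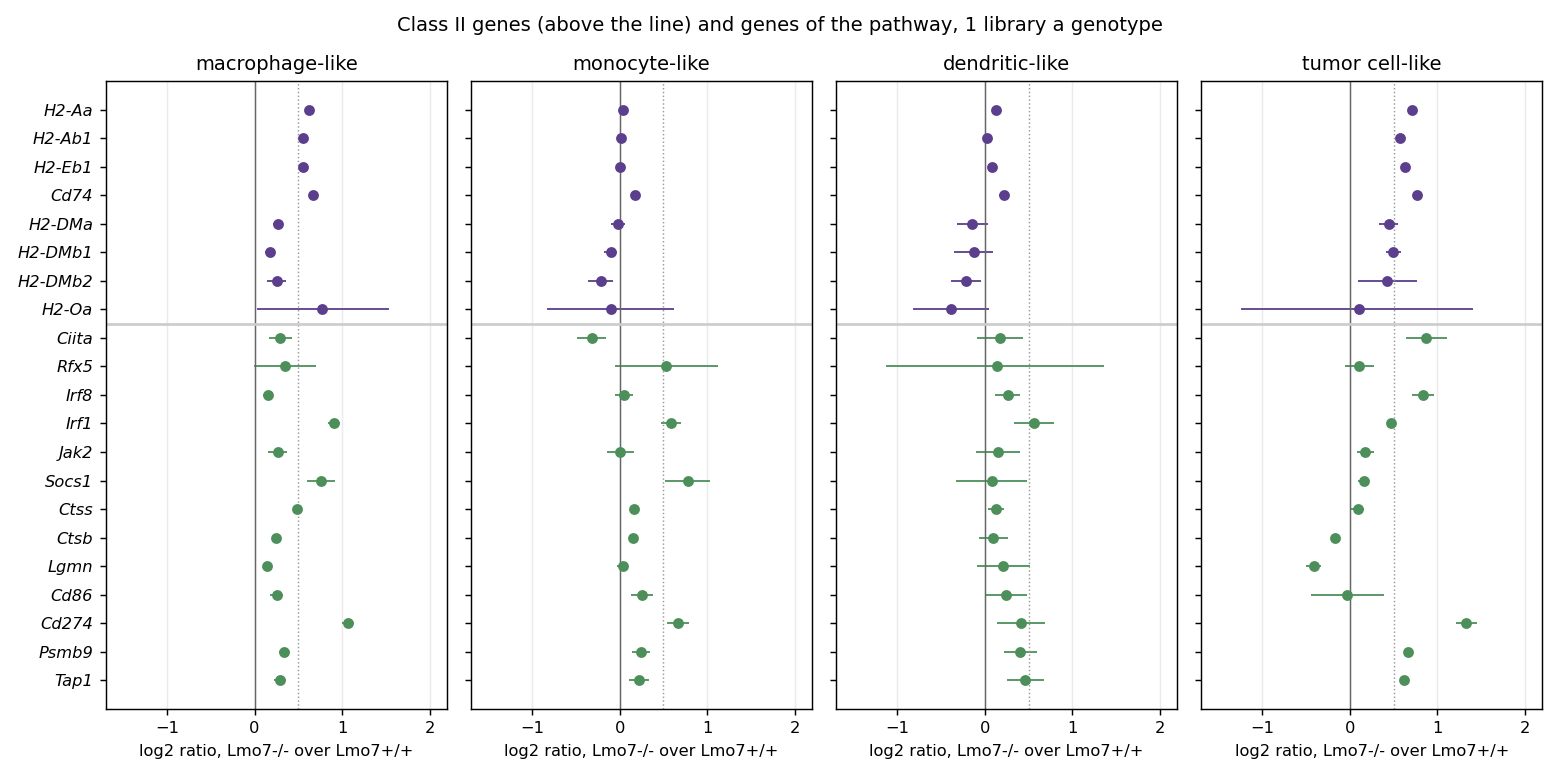
log2 ratio of CPM, Lmo7-/- over Lmo7+/+, for the 8 class II genes (purple) and 13 genes of the pathway (green) in 4 cell classes, with exact 95% counting intervals, a solid line at 0 and a dotted line at 0.5. In macrophage-like cells H2-Aa, H2-Ab1, H2-Eb1, Cd74, H2-Oa, Irf1, Socs1 and Cd274 lie past the dotted line, and in monocyte-like cells no class II gene does.

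Across the 16 points given by 8 macrophage states in 2 libraries, H2-DMa followed the classical chains and Cd74 most closely of the other members (Pearson correlation of log2(CPM + 10) 0.91, rank 5 of 6728 genes), and H2-DMb1 (0.70) and H2-DMb2 (0.68) followed less closely. Outside the lists, the 10 genes most alike were AW112010 (0.90), H2-M2 (0.88), Gbp8 (0.86), Fgl2 (0.84), Gbp2b, Sema4b, Parp8 (each 0.83), Glrx (0.82), Cxcl9 and Nfkbie (each 0.81). Of the pathway lists Ctss (0.82) ranked highest, and Ciita was at 0.71. The points share 2 libraries and their depth, so these values describe this series only.

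Within single macrophages the classical chains also went together. Over 2708 and 3142 thinned cells, the Spearman correlation of H2-Aa with H2-Ab1 was 0.81 and 0.76, that of H2-Aa with Cd74 was 0.69 and 0.66, and that of H2-Aa with H2-DMa was 0.18 and 0.16. H2-DM UMIs were few per cell, and after thinning 39.3% and 43.1% of macrophage-like cells had an H2-DMa UMI. These cells share a library, and the values are given with no test.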

How the data were processed

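The UMI counts per gene and cell were deposited by the authors as raw matrices of called cells, without normalization. The submitters' processing notes name Cell Ranger 2.1.1 and mm10, while the matrix headers carry software version 3.0.0. Cells had to show at least 500 genes and 1000 UMIs, with mitochondrial UMIs up to 15%, and were log-normalized to 10000 counts. The 14 class II and turnover genes, Ciita among them, were left out of the 2000 variable genes, and 30 principal components were clustered over 20 shared neighbours (Louvain, resolution 0.5), without integration of the libraries. Classes took the name of the highest marker score (at least 0.12, with 3 markers at 5 CPM). Types other than tumor cells had to show 50% of their markers at 100 CPM in a finer clustering. Among myeloid clusters, a class with more of its markers among the leading genes, at least 3, took precedence over the score. Clusters scoring highest for fibroblast or tumor cell markers were named tumor cell-like if Ptprc was below 20 CPM and the fibroblast score below 0.5. Other clusters were left unnamed if another lineage reached 0.5 of their score or their leading genes held more markers of another class. Tumor cell-like clusters needed Ptprc below 20 CPM. These limits were chosen once the values were known. Scrublet marked 2.82% and 2.37% of the cells as doublets, which were kept in the values given.

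Counts were summed per class and library and compared as log2 ratios of CPM with exact binomial (Clopper-Pearson) 95% intervals, and genes needed 20 counts summed over the libraries. A ratio of 0.5 on the log2 scale, the fold the study used, counted as past the fold. In ratios, the limit for a count of 0 was 3 counts. Shares and per-cell values were taken after thinning to 1500 UMIs, with shallower cells left out. No test between genotypes was run. The genes named are the 8 members, the genes of the pathway lists and the 10 genes most like the classical chains and Cd74 over macrophage states, among genes with at least 500 counts; some listed genes are not reported here. The members, lists and tests were chosen with earlier results of these data known. The ratio step was tested on simulated data.

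Alternatives were a lenient filter on cells (200 genes, 500 UMIs, 25% mitochondrial) and a strict one (1000 genes, 2000 UMIs, 10% mitochondrial), doublets, resolution, principal components, class II genes used in clustering, the total used for CPM (TMM factors, or the 10 most abundant genes dropped), thinning, means over cells and the minimum of counts and fold. Tools were Python 3.11.15 (numpy 2.4.6, scipy 1.17.1, scikit-learn 1.9.0, python-igraph 0.11.9, scanpy 1.11.5, matplotlib 3.10.9), and edgeR 4.0.16 under R 4.3.3 gave the TMM factors.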

Additional observations from a re-analysis of the deposited data

Results flagged for a closer look

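The class II sum of T or NK-like cells had a log2 ratio of -0.13, against positive ratios in macrophage-like, monocyte-like, dendritic-like, tumor cell-like, fibroblast-like and endothelial-like cells. This opposite direction drew attention, and the difference between the classes was not tested. Without state 6, of which 46.9% of the cells were called doublets, the sum was 604 CPM in Lmo7+/+ and 619 CPM in Lmo7-/-. State 6 itself stood at 5357 and 5801 CPM, so neither part was lower in the library labelled Lmo7-/-. Of the 7 T or NK-like states 4 had a higher sum in the library labelled Lmo7-/-, and the mean log2 ratio with each state weighted equally was 0.043.

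Class II RNA also appeared in clusters that were left unnamed and entered no comparison. A cluster of 1318 cells led by Cx3cr1, Fcrls and Mrc1, of which 41.1% were called doublets, held 12376 CPM over both libraries. A cluster of 213 cells led by Nkg7, Cd8a and Trbc2, with macrophage markers as well, held 28201 CPM. A cluster of 51 cells led by Igkc, Igha and Siglech held 6308 CPM. All 3 stand above the 1403 and 1283 CPM of T or NK-like cells.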

How the results depend on the processing

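No paired analysis was possible because each genotype has 1 library, and no replicate could be left out. The ratios of the macrophage, monocyte, dendritic and tumor class II sums stayed above 0 under every alternative run. In that order, the log2 ratios were 0.69, 0.076, 0.13 and 0.68 with TMM factors, 0.58, 0.065, 0.045 and 0.55 with cells thinned to 1500 UMIs, 0.57, 0.072, 0.052 and 0.39 as a mean over cells of counts per 10000, and 0.48, 0.060, 0.30 and 0.72 with the strict filter on cells. For macrophages, monocytes and tumor cells they were 0.47, 0.054 and 0.69 under lenient filtering, 0.50, 0.12 and 0.62 for 20 principal components, and 0.52, 0.061 and 0.69 with class II genes used in clustering. Macrophages and tumor cells gave 0.57 and 0.70 without doublets, macrophages 0.61 without the 10 most abundant genes in the total, and tumor cells 0.68 at resolution 1.0.

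Dendritic over macrophage-like cells (0.66 in Lmo7+/+ and 0.16 in Lmo7-/-) gave 0.17 and -0.0054 with the strict filter, which reversed the second and left 98 and 75 dendritic-like cells; the cause was not tested. The same pair was 0.60 and 0.20 under lenient filtering, 0.62 and 0.21 for 20 principal components, 0.62 and 0.19 with class II genes in clustering, 0.68 and 0.18 without doublets, 0.64 and 0.12 as a mean over cells, and 0.69 and 0.18 without the 10 most abundant genes. In Lmo7-/- it was 0.10 with TMM and 0.13 with thinned cells. At a fold of 1 on the log2 scale, 0 members passed in macrophages.

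Alternatives chosen after seeing the data were the mean of the ratios within states, 0.61 in macrophages, 0.061 in monocytes and 0.53 in tumor cells, and leaving out states. Without macrophage state 6 the macrophage ratio was 0.55 and dendritic over macrophage-like cells 0.68 and 0.22. Without dendritic state 3 that pair was 0.73 and 0.24. Without dendritic state 5 the dendritic ratio was 0.060 and dendritic over macrophage-like cells 0.68 in Lmo7+/+. Without monocyte states 4 and 5 the monocyte ratio was 0.0070.

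The H2-Aa share in Lmo7+/+ and Lmo7-/- without thinning was 98.5% and 99.7% in macrophages, 62.7% and 69.4% in tumor cells and 33.7% and 30.3% in T or NK-like cells, and 100% in Lmo7+/+ dendritic-like cells. Thinned to 1000 UMIs it was 94.9% and 96.5% in monocytes, 27.6% and 34.9% in tumor cells, 19.7% and 18.01% in T or NK-like cells and 93.5% in Lmo7+/+ macrophages. With 1 library a genotype, counting intervals do not cover the spread between animals, and genotype and library cannot be told apart. Depth limits H2-Oa outside dendritic-like cells and all members in stromal cells.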
